A study of Homo sapiens with 6 samples.

Results

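DNA replication and S phase genes were followed through a list of 50 genes that copy the genome or switch on the genes that do, among them the *MCM* helicase genes, *PCNA*, the polymerase genes and the E2F factors. A gene was represented by the array feature annotated with its symbol alone, and by the brightest such feature where it had several. All 50 were measured, out of 33616 genes with a feature of their own and 138745 features in all. The RNA came from CaSki cells, an established cervical cancer line with integrated HPV16, incubated for 24 h with 10 nM calcitriol, the hormonal form of vitamin D, or with 0.1% ethanol as vehicle, both in medium with charcoal-stripped serum. There were 6 Clariom D arrays, 3 for each treatment, and each array received 1 pool of RNA. Every pool mixed RNA of the same independent experiments, so the spread between pools may be largely technical. In bulk RNA, fewer cells in S phase and less of an mRNA per cell cannot be told apart.

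Before a cell copies its DNA, the origin recognition complex, CDC6 and CDT1 load the MCM helicase onto origins, a step called licensing. At the start of S phase, CDC7 with DBF4 and CDK2 fire the licensed origins, and CDC45 and the GINS complex join MCM to form the active helicase. Polymerases, the sliding clamp PCNA and its loader RFC then make the new strands. Transcription of most of these genes rises at the end of G1, when E2F factors are released from the RB proteins. The E7 protein of HPV16 is known to inactivate the RB proteins, so that E2F is less restrained in cells such as CaSki. Calcitriol is known to slow the growth of many cultured cancer cells, often through a delay in G1.

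The signals are the log2 values deposited by the authors, background-corrected and normalized, and differences are log2 fold changes given as calcitriol minus vehicle and fitted with limma. The array median over all features lay between 4.27 and 4.33. Signals of different features are not compared, because they also depend on the probes. The 50 genes had mean signals of 4.83 (*POLD1*) to 15.68 (*MCM7*), and 46 of them exceeded 6.32, the 95th percentile of 612 negative control features. The 4 others were *E2F2*, *MCM10*, *POLD1* and *LIG1*. Epithelial identity was checked by marker genes, and no marker of the CaSki line itself was tested. All 6 measured epithelial markers had mean signals between 12.05 and 19.03, while the 4 leukocyte and 3 endothelial markers lay below the negative controls. Of 5 fibroblast markers, *COL1A1* (9.49) and *COL1A2* (6.68) lay above them, and the mean of the 5 overlapped between the groups (5.57 to 6.01 in vehicle, 5.63 to 5.98 in calcitriol). The mean of the epithelial markers did not overlap (15.65 to 15.83 in vehicle, 15.47 to 15.64 in calcitriol), and its part in the differences was not tested.

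The replication genes differed little between the treatments. Their log2 fold changes ran from -0.71 to 0.32 with a median of -0.13, and no gene passed an adjusted p of 0.05 over all 138745 features (the smallest adjusted p was 0.915 from limma). By that rule 0 features were lower and 1 was higher, which is 0.000721% of all features. It is 0.00808% of the 12383 coding genes with at least the median signal of all features, a set closer to the replication genes. That median, 4.28, lay below the 6.32 of the negative controls, so the set also holds coding genes under that level. The fold was under 1.2 for 36 of the 50 genes, between 1.2 and 1.5 for 13 and above 1.5 for *CLSPN* alone. At an unadjusted p under 0.05, 3 of the 50 genes (6%) were lower, *CLSPN*, *DBF4* and *ORC1*, and 0 were higher. The lower share was 2.83% of all features and 7.45% of those coding genes, and the higher share 2.58% and 0.686%. At that p and a fold of at least 1.5, 1 gene was lower, against 1.56% of all features and 3.92% of those coding genes, and 0 were higher, against 1.43% and 0.355%. For 6 genes (12%) all calcitriol signals were under all vehicle signals, against 5.55% of all features and 13.2% of those coding genes, and for 1 gene, *POLE*, all of them were above (5.16% and 1.71%).

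**Figure D1:**
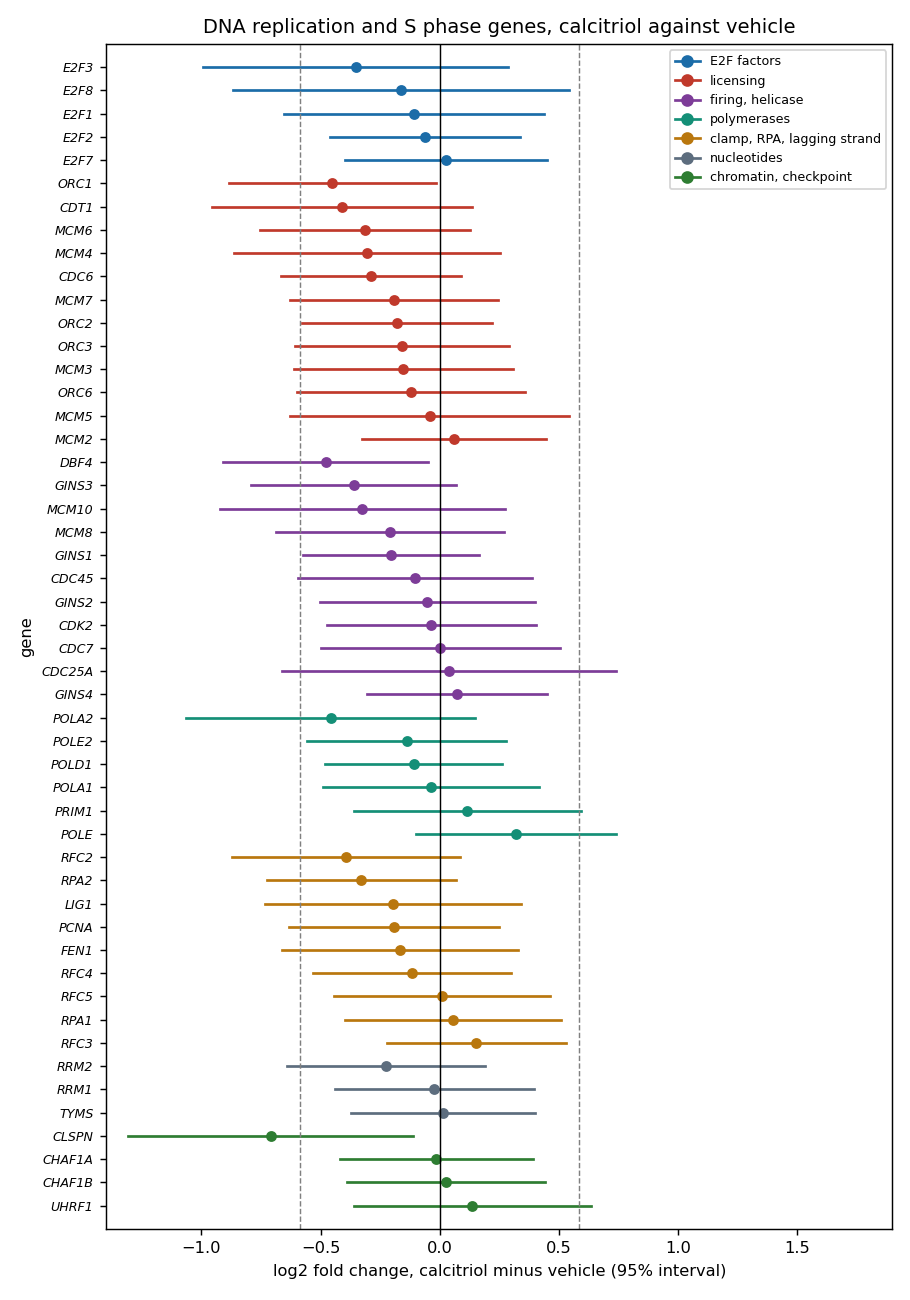
Log2 fold changes (x axis, calcitriol minus vehicle) of the 50 replication genes (y axis), grouped by role, with 95% intervals from limma. Dashed lines mark a fold of 1.5 in either direction, and only *CLSPN* lies beyond one of them.

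A negative log2 fold change was found for 37 of the 50 genes (74%), against 50.7% of all features, 72.5% of coding genes of at least median signal and 78.5% of the 3448 coding genes whose signals lay within the middle 50% of those of the replication genes. The medians were -0.13 for the replication genes, 0.00 for all features, -0.13 for coding genes of at least median signal and -0.17 for those of like signal. Of the coding genes of like signal, 9.16% were lower and 0.232% higher at an unadjusted p under 0.05. With a fold of at least 1.5 as well, the shares were 4.09% and 0.145%. All calcitriol signals were under all vehicle signals for 16% of them and above for 0.841%. The 95% intervals describe how much the arrays could show. They lay within a fold of 2 in both directions for 48 of the 50 genes and within a fold of 1.5 for 20. A rise of 1.5-fold lay outside the interval of 46 genes and a fall of 1.5-fold outside that of 23. The intervals that reached past a 2-fold fall were those of *CLSPN* (-1.31 to -0.11) and *POLA2* (-1.07 to 0.15).

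The mean signal over the 50 genes was 10.51, 10.76 and 10.50 in vehicle pools 1 to 3 and 10.38, 10.58 and 10.38 in calcitriol pools 1 to 3. Pool 2 was the highest in each group, and the groups overlapped. In coding genes of at least median signal the means were 8.37, 8.49 and 8.39 in vehicle and 8.21, 8.38 and 8.24 in calcitriol. Taken against these genes, the replication genes stood 2.14, 2.27 and 2.11 higher in vehicle and 2.17, 2.20 and 2.13 higher in calcitriol, so that all 3 calcitriol pools lay inside the range of the vehicle pools. Among vehicle pools, pool 2 gave the highest signal for 37 of the 50 genes (74%), against 46.6% of coding genes of at least median signal. Among calcitriol pools, pool 2 gave the highest signal for 30 (60%), against 50.9%. The 8 control RNAs added from outside the cells were lower on calcitriol arrays as well. Their means were 8.62, 8.57 and 8.53 in vehicle and 8.19, 8.40 and 8.11 in calcitriol. They did not differ alike, from -0.13 for the brightest (cre) to -0.63 for the dimmest (lys, below the negative controls). The part of these controls in the differences was not tested. With the arrays centred on the mean of these controls, 8 of the 50 genes were negative and the median was 0.21. Of coding genes of at least median signal, 19.1% were then negative, with a median of 0.21. Such centring takes the same value from all signals of an array, so it shifts every gene alike and cannot set these sets apart.

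**Figure D2:**
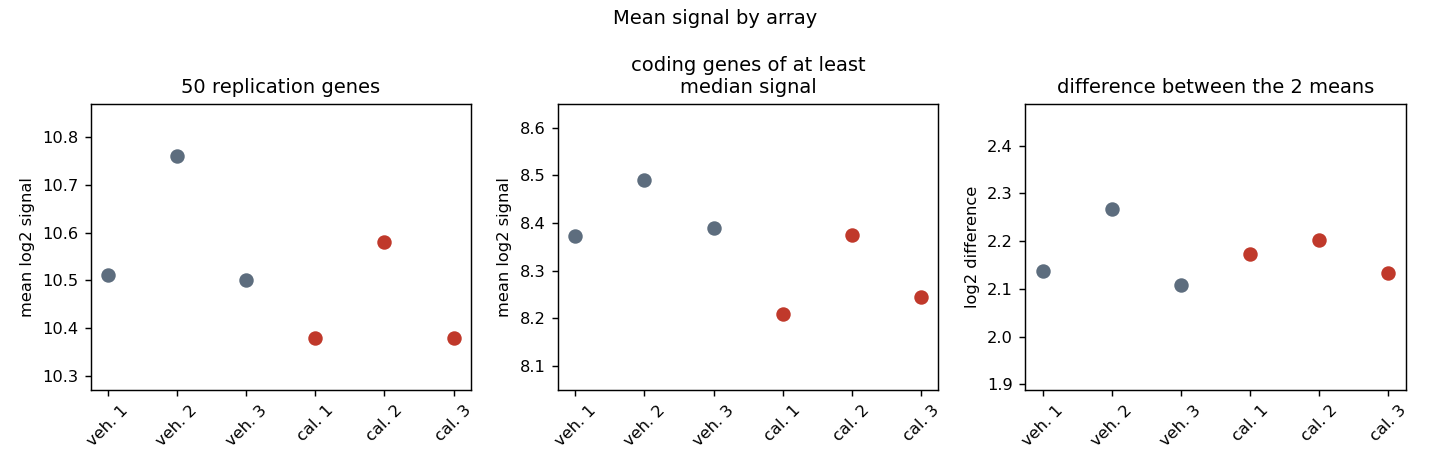
Mean log2 signal (y axis) of each array (x axis; veh., vehicle, grey; cal., calcitriol, red) over the 50 replication genes, over coding genes of at least median signal, and the difference of these means. The y axes do not start at 0 and span the same range; the calcitriol pools lie inside the range of the vehicle pools in the difference (2.13 to 2.20 against 2.11 to 2.27).

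*CLSPN* encodes claspin, the adaptor that lets ATR activate CHK1 when forks stall and that keeps forks moving. Its signals were 9.65, 10.46 and 10.38 in vehicle pools 1 to 3 and 9.18, 9.44 and 9.74 in calcitriol pools 1 to 3. Vehicle pool 1 lay below calcitriol pool 3, so the groups overlapped. The means were 10.16 ± 0.45 and 9.45 ± 0.28 (SD, n = 3 pools each). In limma the difference was -0.71 (standard error 0.26) and its adjusted p was 0.915. The other 3 genes of chromatin copying and the replication checkpoint lay near 0. *CHAF1A* (-0.01) and *CHAF1B* (0.03) encode subunits of the chromatin assembly factor that deposits histones behind the fork, and *UHRF1* (0.14) encodes the protein that brings DNMT1 to newly copied DNA.

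*DBF4* encodes the regulatory subunit of the CDC7 kinase, which phosphorylates MCM to fire origins. Its signals were 11.34, 11.76 and 11.65 in vehicle and 10.96, 11.10 and 11.27 in calcitriol. The groups did not overlap, and their means were 11.59 ± 0.22 and 11.11 ± 0.16 (SD, n = 3 pools each). The difference of -0.48 (standard error 0.19) had an adjusted p of 0.915 in limma. A second feature of *DBF4*, below the negative controls at 5.67, had -0.27 (standard error 0.47). The kinase gene *CDC7* itself had 10.11, 9.88 and 9.56 in vehicle and 9.66, 10.18 and 9.73 in calcitriol, and a difference of 0.00.

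*ORC1* encodes the largest subunit of the origin recognition complex. Its signals were 9.20, 9.19 and 8.85 in vehicle and 8.71, 8.77 and 8.41 in calcitriol. Here too the calcitriol pools were all lower, and limma gave a difference of -0.45 (standard error 0.19) at an adjusted p of 0.915. The other subunits measured, *ORC2* (-0.18), *ORC3* (-0.16) and *ORC6* (-0.12), had smaller differences and overlapping groups. The licensing factor gene *CDC6* had 12.79, 12.85 and 12.68 in vehicle and 12.37, 12.53 and 12.55 in calcitriol, without overlap, and a difference of -0.29 (standard error 0.17). *CDT1*, its partner in loading MCM, had -0.41 (standard error 0.24), but calcitriol pool 2 (7.35) lay inside the range of vehicle (7.10 to 7.40). Of the 12 licensing genes, 11 had a negative log2 fold change and the median was -0.18, beside 78.5% negative and a median of -0.17 in coding genes of like signal.

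These 3 genes at an unadjusted p under 0.05 did not all hold when an array was left out. The count of members was 0 without vehicle pool 2 and 0 without calcitriol pool 1, 1 without vehicle pool 3, and 5 without calcitriol pool 2. It was 3 without vehicle pool 1 and 2 without calcitriol pool 3. In that order, the share of coding genes of at least median signal was 4.61%, 4.47%, 6.55%, 10%, 7.11% and 5.25%, beside 7.45% with all arrays. The genes counted changed as well. Without calcitriol pool 2, *CLSPN* and *DBF4* were above that p, *ORC1* stayed under it and *E2F3* came under it. Without vehicle pool 1, *ORC1* was above it. Genes whose calcitriol pools were all lower numbered 14 without vehicle pool 1 and 16 without calcitriol pool 2. Of those coding genes, 23.9% and 28.7% had such groups there. Without vehicle pool 2 and vehicle pool 3 they numbered 6 and 9 of the 50, beside 17.5% and 22.5% of those coding genes. Without calcitriol pool 1 they numbered 8, beside 17.2%, and without calcitriol pool 3 also 8, beside 18.5%. *CLSPN* stayed between -0.97 and -0.56, *DBF4* between -0.60 and -0.39 and *ORC1* between -0.57 and -0.34 whichever array was left out. With each array centred on coding genes of at least median signal, a setting chosen after the data were seen, the log2 fold changes were -0.57, -0.34 and -0.31, and 0 genes were lower at that p.

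**Figure D3:**
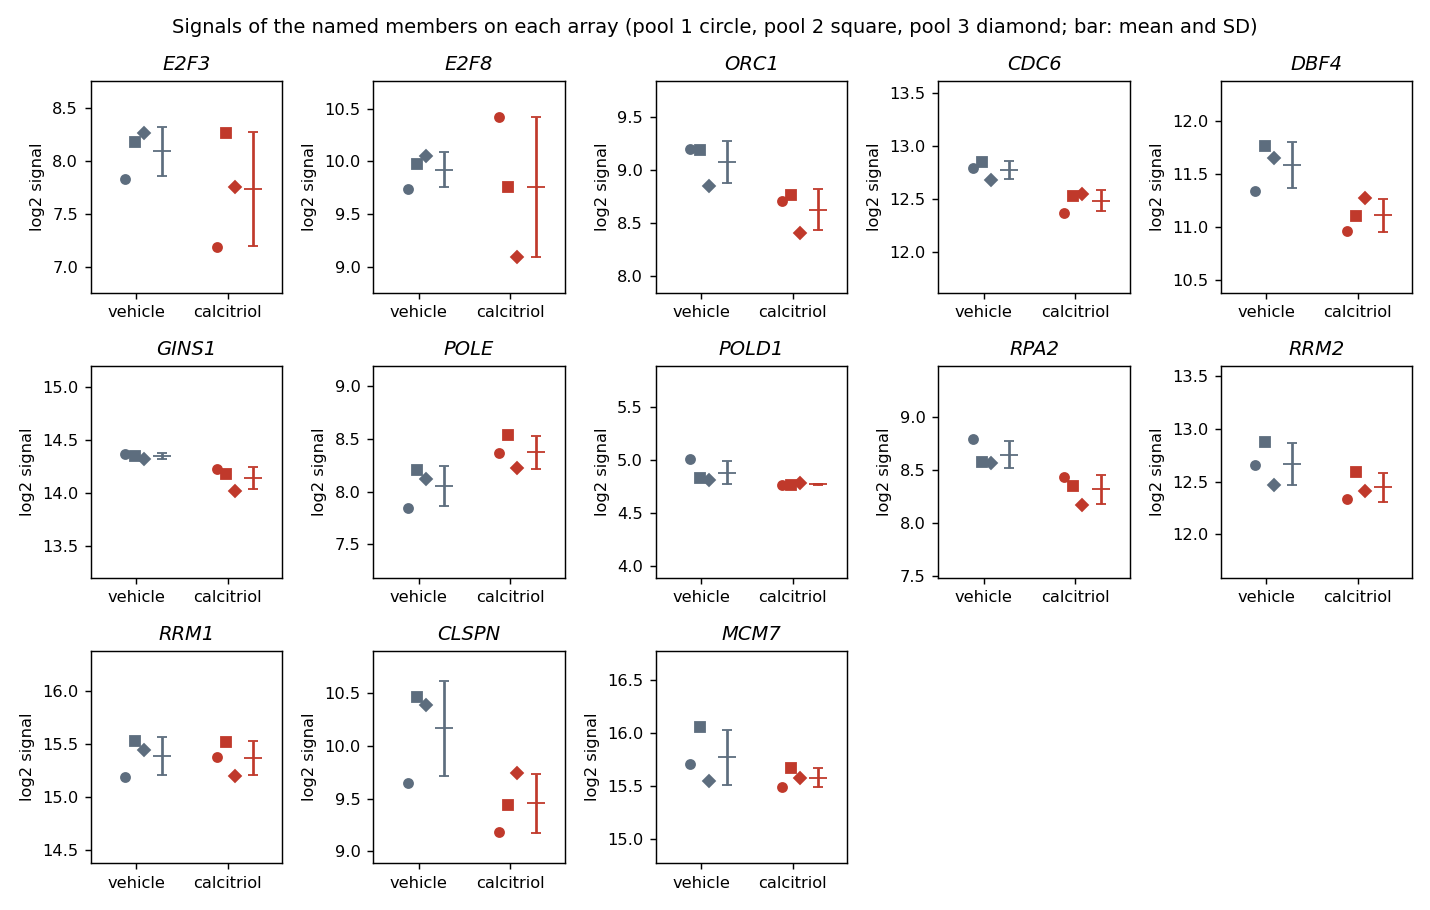
Log2 signal (y axis, 2 units high in every panel, not starting at 0) of the named genes on each array, vehicle in grey and calcitriol in red, with pool 1 as a circle, pool 2 as a square and pool 3 as a diamond. Horizontal marks and bars are the mean and SD of 3 pools; *DBF4*, *ORC1*, *CDC6*, *GINS1*, *RPA2* and *POLD1* have no calcitriol pool at or above a vehicle pool, while the points of *E2F8* and *RRM1* overlap.

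By its brightest feature, no helicase gene had an unadjusted p under 0.05. The 6 genes *MCM2* to *MCM7*, whose products form the ring that unwinds DNA, had log2 fold changes from -0.31 (*MCM6*) to 0.06 (*MCM2*), and in all 6 the groups overlapped. *MCM7* had 15.71, 16.06 and 15.55 in vehicle and 15.49, 15.67 and 15.58 in calcitriol, with a difference of -0.19 (standard error 0.19). A second, dimmer feature of *MCM2* (mean 5.24, below the negative controls) had 0.72 (standard error 0.26), away from the 0.06 of the bright one. Its groups did not overlap, and limma gave an unadjusted p of 0.024 and an adjusted p of 0.915. The 4 *GINS* genes ranged from -0.36 (*GINS3*) to 0.07 (*GINS4*). Further features of *GINS3*, below the negative controls (means 3.90 and 3.76), had 0.22 and 0.04. *GINS1* had 14.37, 14.35 and 14.32 in vehicle and 14.22, 14.18 and 14.02 in calcitriol, groups without overlap and a difference of -0.20 (standard error 0.16). *CDC45*, the remaining partner of the active helicase, had -0.10 and *MCM10*, which helps to start unwinding, -0.32 (standard error 0.26) at signals below the negative controls. *MCM8*, a helicase gene of recombination repair rather than of the replicative ring, had -0.21 (standard error 0.21). *CDK2* (-0.03), the S phase kinase gene, and *CDC25A* (0.04), the gene of the phosphatase that activates it, lay near 0.

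*POLE* encodes the catalytic subunit of polymerase epsilon, which makes the leading strand. Its signals were 7.84, 8.20 and 8.12 in vehicle and 8.36, 8.53 and 8.22 in calcitriol. Calcitriol pools lay above all vehicle pools, by a narrow margin in pool 3, and the difference was 0.32 (standard error 0.18), with an adjusted p of 0.917 in limma. A second feature of *POLE* below the negative controls (mean 4.87) had 0.60 (standard error 0.19). Its groups did not overlap, and limma gave an unadjusted p of 0.012 and an adjusted p of 0.915. This feature and the dim one of *MCM2* were higher at an unadjusted p under 0.05 and a fold of at least 1.5. So were 1.43% of all features, and the counts above use the brightest feature only. The accessory subunit gene *POLE2* had -0.14 and overlapping groups. In the polymerase alpha-primase complex, which lays down primers, *POLA2* had -0.46 (standard error 0.27), with calcitriol pool 1 at 8.45 and the other two at 9.49 and 9.15 against 9.35 to 9.58 in vehicle. *POLA1* (-0.04) and *PRIM1* (0.12) lay near 0. *POLD1*, of the lagging-strand polymerase delta, was dim, with 5.01, 4.83 and 4.81 in vehicle and 4.77, 4.77 and 4.78 in calcitriol, all below the negative controls. Its calcitriol pools lay below the vehicle pools by a small margin, with a difference of -0.11 (standard error 0.16).

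*PCNA*, the sliding clamp gene, had 14.81, 15.13 and 14.73 in vehicle and 14.61, 14.93 and 14.57 in calcitriol, overlapping groups and a difference of -0.19 (standard error 0.19). The clamp loader genes ranged from -0.39 (*RFC2*, standard error 0.21) through -0.11 (*RFC4*) and 0.01 (*RFC5*) to 0.15 (*RFC3*). Members of 1 complex therefore lay on both sides of 0, with every interval across it. A second feature of *RFC3*, below the negative controls (mean 4.73), had 0.42 (standard error 0.20). *RPA2*, of the complex that covers single-stranded DNA, had 8.80, 8.58 and 8.57 in vehicle and 8.44, 8.35 and 8.17 in calcitriol. Its groups did not overlap, and the difference was -0.33 (standard error 0.17), with an adjusted p of 0.915 in limma. Its partner *RPA1* had 0.05. The flap nuclease gene *FEN1* (-0.17) and the ligase gene *LIG1* (-0.20), whose products finish lagging-strand fragments, had overlapping groups.

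The 3 genes of nucleotide supply had a median difference of -0.02. *RRM1*, the large subunit gene of ribonucleotide reductase, had 15.19, 15.53 and 15.44 in vehicle and 15.38, 15.52 and 15.20 in calcitriol. The groups covered nearly the same range, and the 95% interval of the difference was -0.44 to 0.39. *RRM2*, the small subunit gene, whose mRNA is known to peak in S phase, had 12.66, 12.87 and 12.47 in vehicle and 12.33, 12.59 and 12.41 in calcitriol, a difference of -0.23 (standard error 0.18). *TYMS*, the thymidylate synthase gene, had 0.01 with an interval of -0.37 to 0.40.

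In all 5 genes of E2F factors the groups overlapped. *E2F3*, an activator, had 7.83, 8.18 and 8.27 in vehicle and 7.19, 8.27 and 7.76 in calcitriol, a difference of -0.35 (standard error 0.28). Calcitriol pool 2 reached the top of the vehicle range, and the difference was -0.62 without that pool and -0.08 without calcitriol pool 1. *E2F8*, a repressor that acts late in S phase, had 9.74, 9.98 and 10.05 in vehicle and 10.42, 9.76 and 9.10 in calcitriol, the widest spread between pools of any member (SD 0.66, n = 3). Its calcitriol pools lay on both sides of the vehicle range, and without calcitriol pool 3 the difference changed from -0.16 to 0.16. The activators *E2F1* (-0.11) and *E2F2* (-0.06, below the negative controls) and the repressor *E2F7* (0.03) lay near 0. Their intervals were -0.65 to 0.44, -0.46 to 0.34 and -0.40 to 0.45. A second feature of *E2F1*, below the negative controls (mean 4.28), had 0.14 (standard error 0.21).

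**Figure D4:**
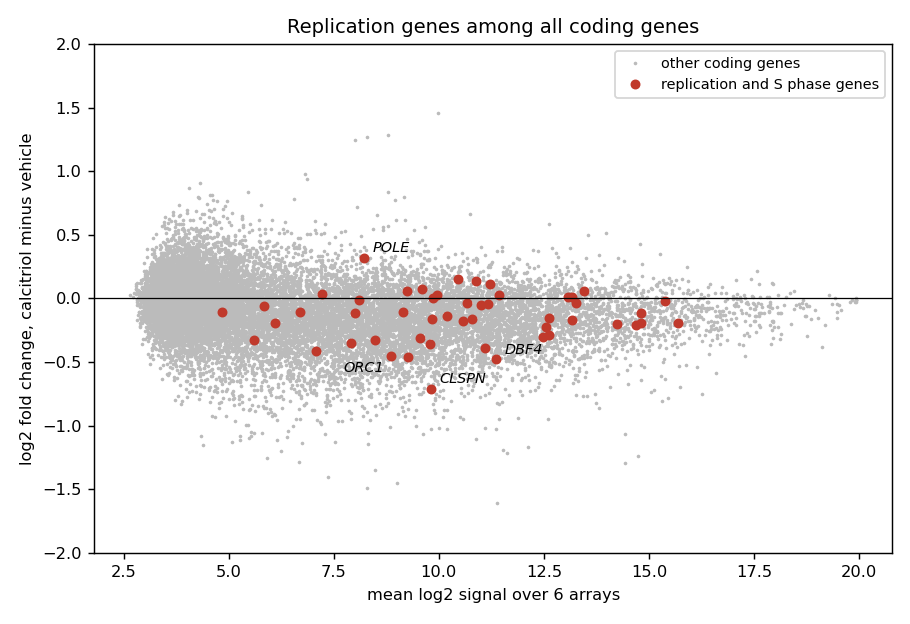
Log2 fold change (y axis, calcitriol minus vehicle) against mean log2 signal over 6 arrays (x axis) for the 50 replication genes (red) and 17529 other coding genes (grey). The red points lie within the grey cloud, between -0.71 and 0.32, and 1 other coding gene lies outside the plotted range.

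Promoters are shown because the E2F sites of these genes are the textbook link between the RB proteins and S phase. The windows run from 250 bases before to 50 after the start of transcription (RefSeq, GRCh38.p14) and were found for 44 of the 50 genes. *CDK2*, *E2F8*, *GINS4*, *MCM4*, *MCM5* and *RPA2* had no entry. Searched on both strands, an E2F motif (TTTCCCGC, TTTCGCGC, TTTGCCGC or TTTGGCGC) lay in 25 of the 44 windows (56.8%), against 3.33% of 27305 windows of all genes. The CCAAT box (CCAAT) lay in 28 (63.6%, against 35.7%) and the CHR element of late cell cycle genes (TTTGAA or TTCGAA) in 4 (9.09%, against 16.6%). None of these motifs contains another, and a match is a string of letters, not a bound site. The windows of the genes with the lowest and the highest log2 fold change, of *ORC1* and *DBF4*, and of *E2F1* as a reference, read 5′ to 3′ with E2F matches in capitals:
*CLSPN* (chr1:35769929-35770228, - strand): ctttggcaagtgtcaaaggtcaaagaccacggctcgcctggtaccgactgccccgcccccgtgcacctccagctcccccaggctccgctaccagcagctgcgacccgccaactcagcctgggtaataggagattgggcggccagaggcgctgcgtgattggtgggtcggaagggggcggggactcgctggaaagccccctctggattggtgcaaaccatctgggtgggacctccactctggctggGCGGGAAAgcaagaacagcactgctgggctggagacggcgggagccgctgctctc
*POLE* (chr12:132687293-132687592, - strand): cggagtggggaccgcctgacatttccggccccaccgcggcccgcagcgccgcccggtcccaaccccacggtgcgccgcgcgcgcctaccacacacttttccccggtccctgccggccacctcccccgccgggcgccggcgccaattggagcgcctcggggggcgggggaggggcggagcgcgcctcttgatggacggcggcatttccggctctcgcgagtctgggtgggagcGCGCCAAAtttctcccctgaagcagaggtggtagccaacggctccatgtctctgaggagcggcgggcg
*ORC1* (chr1:52404374-52404673, - strand): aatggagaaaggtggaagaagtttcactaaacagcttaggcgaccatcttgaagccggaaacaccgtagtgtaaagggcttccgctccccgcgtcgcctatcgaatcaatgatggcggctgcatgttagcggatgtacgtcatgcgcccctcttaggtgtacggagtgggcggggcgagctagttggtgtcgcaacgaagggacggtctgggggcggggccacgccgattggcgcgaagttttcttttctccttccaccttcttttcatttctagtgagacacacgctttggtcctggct
*DBF4* (chr7:87876243-87876542, + strand): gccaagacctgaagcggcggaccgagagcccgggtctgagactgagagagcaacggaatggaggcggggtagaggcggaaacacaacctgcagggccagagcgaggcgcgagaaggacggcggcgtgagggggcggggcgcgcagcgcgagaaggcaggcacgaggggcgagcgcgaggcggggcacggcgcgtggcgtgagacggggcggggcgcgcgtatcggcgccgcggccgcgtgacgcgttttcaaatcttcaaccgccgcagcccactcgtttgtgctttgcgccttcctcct
*E2F1* (chr20:33686336-33686635, - strand): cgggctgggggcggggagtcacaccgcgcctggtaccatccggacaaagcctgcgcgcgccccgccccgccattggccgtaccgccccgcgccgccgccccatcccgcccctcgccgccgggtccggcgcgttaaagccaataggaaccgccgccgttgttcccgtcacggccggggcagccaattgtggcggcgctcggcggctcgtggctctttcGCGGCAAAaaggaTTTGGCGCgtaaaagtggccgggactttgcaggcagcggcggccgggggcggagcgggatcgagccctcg
*CLSPN* and *POLE*, at opposite ends of the list, each held 1 match close to the start of transcription, at -5 and -18 with the start counted as 0. *E2F1* held 2 matches, at -33 and -20, while the windows of *ORC1* and *DBF4* held none of the 4 E2F strings. The *ORC1* window held 1 CCAAT box and the *DBF4* window 1 CHR element. Other forms of an E2F site were not searched, so a window without a match can still hold one. The median log2 fold change was -0.16 for the 25 genes with a match and -0.11 for the 19 without, and both groups reached well into the other's range (-0.71 to 0.32 and -0.48 to 0.12). For the CCAAT box the medians were -0.14 with and -0.13 without a match, and for the CHR element -0.33 over 4 genes with a match and -0.12 over 40 without. Among coding genes of at least median signal, the 505 that carried a match and are not on the list had a median of -0.16, and the 9733 without one had -0.13.

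Further genes of the same pathway, taken from lists of 79 genes of which 72 were measured, gave 4 lower and 0 higher at an unadjusted p under 0.05, and 0 passed after adjustment. The lower share at that p was 2.83% of all features and 7.45% of coding genes of at least median signal. Among 28 other genes of the replication machinery, 22 were negative (78.6%) with a median of -0.14. Of those coding genes 72.5% were negative, and of coding genes with signals like the 50 genes 78.5%. The smallest p was that of *TIPIN*. It encodes a partner of TIMELESS in the fork protection complex that works with claspin. Its signals were 9.11, 9.25 and 8.80 in vehicle and 8.45, 8.43 and 8.45 in calcitriol, without overlap, and it differed by -0.61 (standard error 0.18), at an adjusted p of 0.915 in limma. *TIMELESS*, added after its value was seen, had -0.32 (standard error 0.24) and overlapping groups. *SSBP1*, of mitochondrial DNA replication, had -0.47 (standard error 0.24) and *RFC1*, the large clamp loader subunit gene, -0.37 (standard error 0.22). Single arrays weighed on both, since *SSBP1* had -0.27 without calcitriol pool 1 and -0.29 without vehicle pool 3, and *RFC1* had -0.56 without vehicle pool 1 and -0.18 without vehicle pool 2.

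Among 20 measured genes listed as further S phase genes, 0 were lower or higher at that p and the median was -0.11. Of these, 17 were negative (85%), against 72.5% of coding genes of at least median signal and 78.5% of coding genes with signals like the 50 genes. Whether each listed gene is active in S phase was not tested. The smallest p belonged to the E2F and MYC target gene *CDCA7* (-0.46, standard error 0.23), the ribonucleotide reductase gene *RRM2B* (-0.33, standard error 0.21) and the maintenance methyltransferase gene *DNMT1* (-0.28, standard error 0.20). Leaving out 1 array at a time gave -0.66 to -0.31 for *CDCA7*, -0.53 to -0.17 for *RRM2B* and -0.40 to -0.13 for *DNMT1*. Among 24 measured genes that control the step from G1 to S, 3 were lower at that p, 19 were negative (79.2%) and the median was -0.16. Of coding genes of at least median signal, 7.45% were lower at that p and 72.5% negative. For 5 of the 24, among them *CCNA2* and *CDKN2A* (both -0.35), all calcitriol signals were under all vehicle signals. The share of such groups was 5.55% of all features and 13.2% of those coding genes. *CCND1*, the cyclin D1 gene, had 12.57, 12.46 and 12.36 in vehicle and 11.75, 11.54 and 12.17 in calcitriol. *FBXO5* encodes EMI1, which holds back the anaphase-promoting complex during S phase, and had 10.22, 10.79 and 10.15 in vehicle and 9.07, 9.97 and 9.83 in calcitriol. *E2F6*, a repressor without an RB-binding part, had 5.83, 6.01 and 5.87 in vehicle and 5.02, 5.58 and 5.21 in calcitriol, below the negative controls. The groups did not overlap in any of these 3 genes, and the log2 fold changes of *CCND1*, *FBXO5* and *E2F6* were -0.64, -0.76 and -0.63. That of *FBXO5* was -0.49 without calcitriol pool 1 and -0.56 without vehicle pool 2, and in both fits its unadjusted p was above 0.05.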

How the data were processed

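CaSki RNA was hybridized to 6 Clariom D arrays, 1 pool each. Background correction and normalization by the authors used Transcriptome Analysis Console, and the deposited values are log2 signals of 138745 features. Neither the labels nor the methods name the algorithm or the annotation build. The 36176 features with 1 gene symbol in the platform annotation gave 33616 genes, 17579 of them protein-coding by RefSeq, with the brightest feature standing for a gene.

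Groups were compared by lmFit and eBayes of limma 3.58.1 in R 4.3.3 (prior degrees of freedom 4.51), two-sided, with Benjamini-Hochberg adjustment over all features, 2995 control features included. With 3 pools per group an exact permutation test cannot go below p = 0.1. The members, roles and lists were chosen with earlier results of these data known. Values on each array are given for members with an unadjusted p under 0.05 or groups without overlap, up to 4 per role, for the 2 with the smallest p in roles with none, and for the brightest and the dimmest, and the 3 genes with the smallest p of each further list are named. *CDC7* and *PCNA* were added with their values known. The script was tested on simulated data. Scaling, filter, variance model, choice of feature and threshold were varied, the pool number was used as a block, and each array was left out. The number of arrays limits the precision.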

Additional observations from a re-analysis of the deposited data

How the results depend on the processing

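Among the alternative values of the named genes, 292 kept their direction and their side of an unadjusted p of 0.05, 31 lost that p, 12 gained it and 17 changed sign. When arrays were centred on the added control RNAs, the median of all features moved to 0.34 and that of the members to 0.21, 8 members were negative, 0 were lower and 2 higher at an unadjusted p under 0.05 (with a fold of at least 1.5, 0 lower and 1 higher), and 0 lay wholly below and 13 wholly above vehicle. Of coding genes of at least median signal, 8.62% were then higher at that p and 21.3% wholly above. Of the other genes of the pathway, 0 were then lower and 3 higher. The sign changed there for *CDC6* (0.053), *DNMT1* (0.066), *E2F8* (0.18), *GINS1* (0.14), *MCM7* (0.15), *POLD1* (0.23), *RPA2* (0.014), *RRM1* (0.32), *RRM2* (0.12) and *RRM2B* (0.015). With the arrays centred on coding genes of at least median signal, chosen after the data were seen, the median of the members was 0.013, 24 were negative, 0 were lower at that p by either rule and 1 was higher, 0 lay wholly below and 3 wholly above (2.85% lower, 1.93% higher, 6.08% below and 6.20% above among those coding genes), and *POLD1* (0.032) and *RRM1* (0.12) changed sign. Quantile normalization gave 1 lower and 1 higher at that p, 0 lower at a fold of at least 1.5, 2 wholly below, 5 wholly above, and *RRM1* at 0.087, beside 4.64%, 0.953%, 2.42%, 8.37% and 2.99% of those coding genes by the same rules. Centring on the array median left 0 wholly above, beside 1.32% of those coding genes. Averaging all features of a gene gave 1 higher and 3 wholly above, beside 0.695% and 1.73%. The ordinary variance gave 5 lower at that p and 0 at a fold of at least 1.5, beside 7.24% and 2.41%. In the main fit a fold of at least 1.2 at that p gave 3 lower, the same genes as that p alone.

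Across the fits that each lacked 1 array, 0 to 5 members were lower at that p and 0 to 3 at a fold of at least 1.5. In these fits 6 to 16 members lay wholly below, 1 to 4 wholly above and 29 to 45 were negative. The shares of coding genes of at least median signal were, in that order, 4.47% to 10%, 2.92% to 7.3%, 17.2% to 28.7%, 3.56% to 5.24% and 65.2% to 75.5%. The median of the members was -0.17 to -0.05, and 3 to 7 other genes of the pathway were lower. Groups of fewer arrays overlap less often by construction. *E2F8* ranged from -0.49 to 0.16 and *RRM1* from -0.12 to 0.061. The cause of these changes was not tested. In every setting 0 members passed an adjusted p of 0.05. Neither the labels nor the methods say whether pools with the same number share more than that number. Their deviations correlated by 0.028 to 0.057 across features of at least median signal, and each of the 6 correlated best with its own number. Deviations within a group are tied to each other, so these matches are not independent and do not establish a pairing. A fit with the pool number as a replicate block gave 3 members lower at that p, 1 at a fold of at least 1.5, and 37 negative. The shares of coding genes of at least median signal were 7.24%, 4.1% and 72.5% there.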
